A study of Mus musculus with 4 samples.

Results

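Interferon-stimulated genes are the genes that a cell switches on when an interferon binds its receptor. The 38 genes described here were taken from a written list of well-known targets, and every non-control probe that the array design names after one of them was used. They were 38 of the 24040 genes measured. All 38 were well above background on all 4 arrays with their brightest probe, so none was lost to the filter on dim probes. They had 49 probes on 77 spots.

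Type I interferons signal through a receptor and 2 kinases to a complex that holds STAT2 and IRF9 and binds a DNA motif called the interferon-stimulated response element. Interferon gamma acts on another motif, the gamma-activated sequence. The targets sense viral RNA, block viral replication, tag proteins with ISG15 and present antigen on class I molecules. Many cells, including those of bone, express part of this set at rest.

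RNA came from mouse primary osteoblasts, the bone-forming cells, grown with 10% serum in all 4 cultures. One culture received BMP2 at 200 ng/ml together with LOXL2 at 4 µg/ml, 1 received BMP2 alone, 1 received LOXL2 alone and 1 was untreated, all for 72 h. BMP2 is a growth factor that drives osteoblast differentiation, and LOXL2 belongs to the lysyl oxidases, secreted enzymes that act on collagen. The labels call the cells given BMP2 osteoblasts and the others pre-osteoblasts. They do not give the strain, the age or the bone. The study looked for regulators of differentiation under BMP2.

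Each treatment had 1 single-colour array, and all 4 arrays were on 1 slide, so array position, culture and treatment cannot be told apart. A level is the log2 fluorescence intensity minus the 75th percentile of its own array, a difference is one level minus another, and values that belong to 1 array have no error from replicate cultures. The median SD of the log2 signal over the spots of a probe printed 10 times was 0.0642 to 0.0669. This spot spread amounts to 0.0915 for a difference between 2 arrays and to 0.129 for a difference of 2 such differences, and it covers printing and scanning only. Of the osteoblast markers, 7 of 8 were measured, with Col1a1 at levels of 8.49, 8.55, 8.59 and 8.58 under BMP2 and LOXL2, BMP2, LOXL2 and no treatment. Dmp1, a marker of osteocytes, was well above background on 1 array. Of the 7, 4 rose under BMP2, against 10.3% of all genes. Among these, Sp7, the osteoblast transcription factor, rose by 2.23 ± 0.05 (log2, SE, limma adjusted p = 0.0206).

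Promoters of 4 genes are printed because the results below turn on their levels and because they differ in the response element. The first 3 belong to genes whose level departs on 1 array, and Isg15, added after its values were seen, is shown as a promoter with several matches. Each runs 5′ to 3′ on the gene's own strand through 250 bases before the RefSeq start site and the first 10 bases after it, from the RefSeq promoter table for GRCm38.p6. Capitals mark the response element core, GAAANNGAA, on either strand.

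Ifi44: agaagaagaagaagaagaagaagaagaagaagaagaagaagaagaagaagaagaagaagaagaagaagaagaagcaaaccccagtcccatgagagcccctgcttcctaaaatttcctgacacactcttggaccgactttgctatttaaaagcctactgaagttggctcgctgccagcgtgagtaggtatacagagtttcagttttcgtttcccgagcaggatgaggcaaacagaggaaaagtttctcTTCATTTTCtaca
Irf7: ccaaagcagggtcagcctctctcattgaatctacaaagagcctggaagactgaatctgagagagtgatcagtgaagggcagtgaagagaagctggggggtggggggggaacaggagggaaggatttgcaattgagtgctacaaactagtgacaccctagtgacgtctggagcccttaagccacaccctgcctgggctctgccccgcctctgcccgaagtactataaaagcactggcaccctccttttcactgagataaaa
Cxcl10: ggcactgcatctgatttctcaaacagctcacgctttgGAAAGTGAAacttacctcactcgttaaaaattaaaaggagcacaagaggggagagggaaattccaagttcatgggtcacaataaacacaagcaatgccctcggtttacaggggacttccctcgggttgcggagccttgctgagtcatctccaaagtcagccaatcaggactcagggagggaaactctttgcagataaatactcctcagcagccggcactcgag
Isg15: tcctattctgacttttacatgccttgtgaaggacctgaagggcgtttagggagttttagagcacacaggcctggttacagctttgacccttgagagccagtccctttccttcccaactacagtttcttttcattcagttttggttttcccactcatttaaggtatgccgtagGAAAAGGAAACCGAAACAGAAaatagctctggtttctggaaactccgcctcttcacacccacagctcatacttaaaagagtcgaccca

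These promoters lie at chr3:151749901-151750160, chr7:141266415-141266674, chr5:92348880-92349139 and chr4:156200809-156201068, all on the minus strand. Counted from the start site, Ifi44 held 1 match at position -3 on the opposite strand. Irf7 held none, Cxcl10 held 1 at position -213, and Isg15 held 3 that overlap each other. The RefSeq table held 30 of the 38 genes. The core was found within 250 bases before and 50 after the start in 18 of these 30 genes, against 9.76% of the 27025 genes in the table. The gamma-activated sequence, searched as TTCNNNGAA, was found in 9 of 30, against 9.55% of all genes, and 5 genes held both. Over promoters instead of genes the shares in the table were 8.56% and 8.3% of 32851. A match is a description of the letters in this window and says nothing of binding in these cells.

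**Figure D1:**
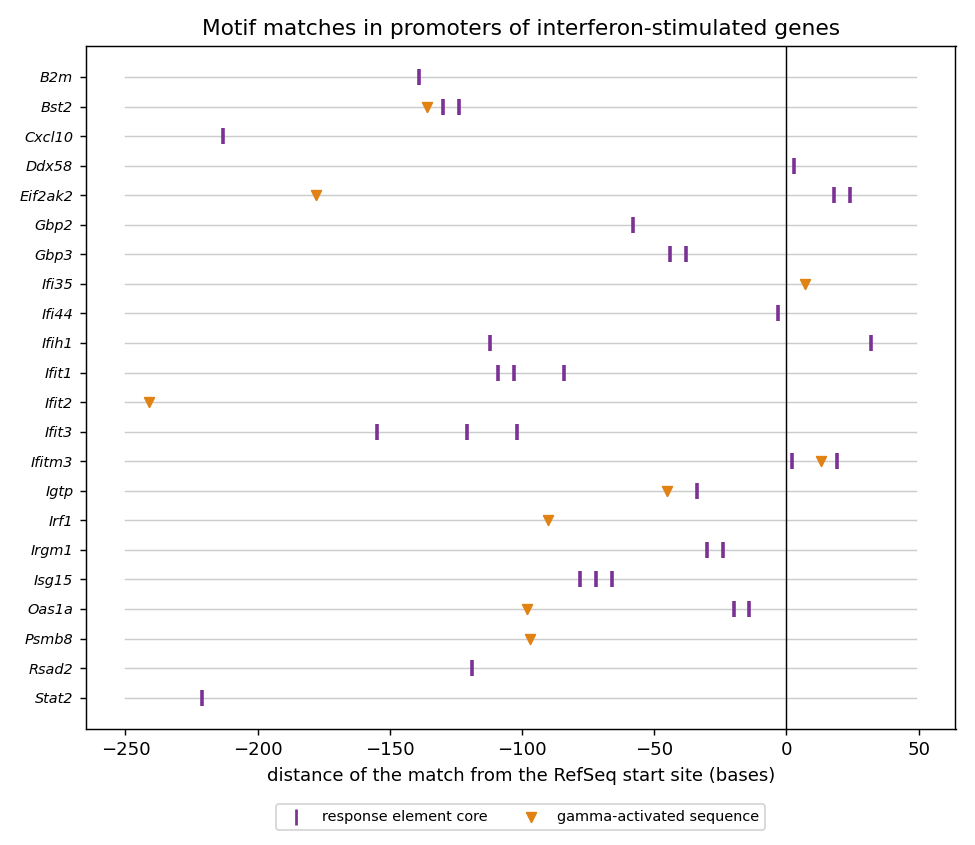
Motif matches in the promoters of the 22 interferon-stimulated genes that hold at least 1. The x axis is the distance in bases from the RefSeq start site (vertical line) to the first base of the match, purple bars are the response element core (18 genes) and orange triangles the gamma-activated sequence (9 genes).

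Across the 4 arrays, the commonest pattern was a low level in untreated cells. Untreated cells had the lowest of the 4 levels for 19 of the 38 genes, against 29.5% of all genes, and the highest for 1, against 29.0%. Among the 19, the next array lay only 0.02 higher for Psmb8, 0.04 for B2m and 0.05 for Ifit3. These steps are below the spot spread of 0.0915. LOXL2 alone gave the highest level for 15, against 19.5% of all genes. Among the 15, it exceeded untreated cells by less than that spread for Irf1 (0.08), Gbp2 (0.08), Eif2ak2 (0.06) and Ifitm3 (0.02). An array was said to depart where its level lay at least 0.5 from the nearest of the other 3 and that gap exceeded the range of those 3. By that rule 5 of the 38 genes had a departing array, against 3.27% of all genes. Untreated cells departed low for Ifi44, Mx2 and Irf7, against 0.603% of all genes, and the array with both proteins departed low for Mx1 and Cxcl10, against 0.607%.

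Ifi44, an interferon-induced protein of the cytoplasm, had levels of 1.86 under both proteins, 1.88 under BMP2, 1.23 under LOXL2 and 0.47 in untreated cells. Its probe lies at chr3:151394035-151394094 (mm9, minus strand). The gap below the next array was 0.77, the 52nd widest of the 145 genes with untreated cells departing low. Mx2, a dynamin-like antiviral GTPase, had levels of 0.65, 0.61 and 0.24 in the 3 treated cultures in the same order and -0.3 in untreated cells. Its probe lies at chr16:97782327-97782386 (mm9, plus strand). Irf7, the factor that amplifies interferon production, had levels of -0.87, -0.85 and -1.0 in the treated cultures and -1.54 in untreated cells. Its probe spans chr7:148450664-148451014 (mm9, minus strand), a wider span than those of the other probes. The gaps of Mx2 and Irf7 were both 0.54, and these genes ranked 125th and 128th of the 145. For all 3 genes the 3 treated cultures lay above untreated cells, with LOXL2 the lowest of them, and they spanned 0.64 for Ifi44, 0.4 for Mx2 and 0.14 for Irf7. None of the 20 genes with the widest such gaps, 1.1 to 2.53, was an interferon-stimulated gene or on the wider pathway list.

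With the gap lowered to 0.25, untreated cells departed low for 10 of the 38 genes, against 2.22% of all genes. These were Irf7, Stat2, Ifit1, Mx2, Oas1a, Oasl2, Isg15, Ifi44, Rtp4 and Bst2. LOXL2 alone departed high at that gap for Zbp1, Ifit3, Oas2 and Gbp3, which are 4 of 38, against 0.982% of all genes.

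**Figure D2:**
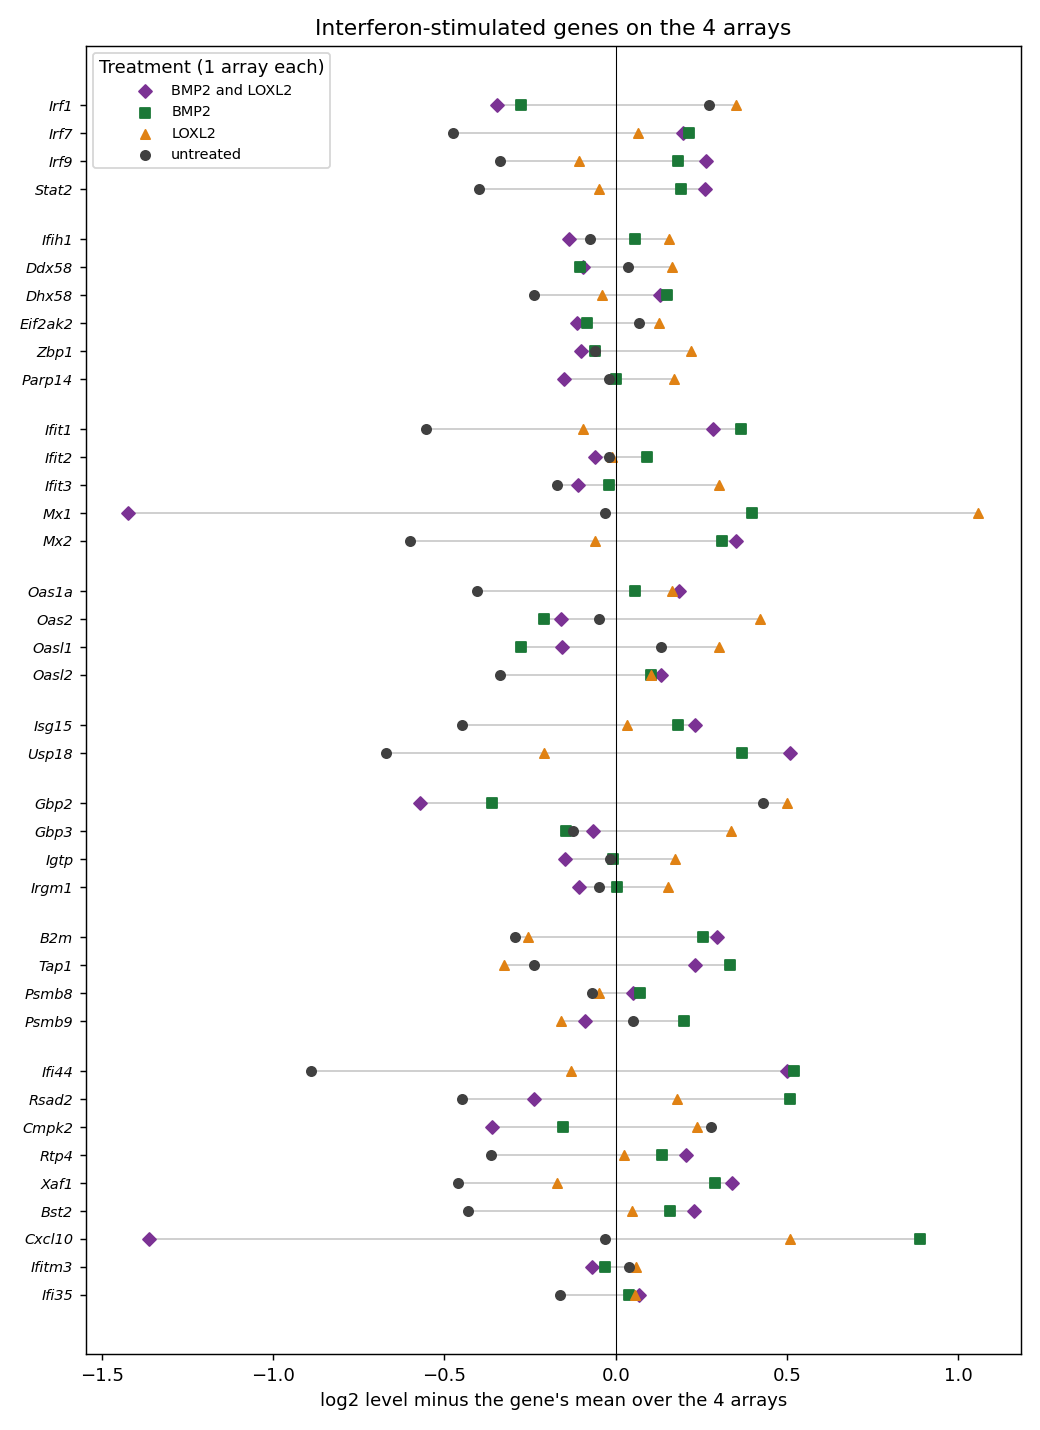
Level of each of the 38 interferon-stimulated genes on the 4 arrays, as the log2 level minus the gene's own mean, with genes grouped by role down the page. Each point is 1 array. Untreated cells (grey) are lowest for 19 genes, and the 2 widest spreads are those of Mx1 and Cxcl10, whose array with both proteins (purple) departs by 1.39 and 1.33.

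The model that adds a BMP2 and a LOXL2 effect over the 4 arrays (limma, 1 residual degree of freedom, Benjamini-Hochberg adjustment over 24040 genes) called 9 of the 38 genes for BMP2. Irf9, Usp18, B2m, Tap1 and Xaf1 rose and Irf1, Oasl1, Gbp2 and Cmpk2 fell. These counts are 5 and 4 of 38, against 10.3% of all genes called up and 9.98% called down, which is near the share over all genes. The residual of this fit comes from the BMP2 difference under LOXL2 minus that without. Its median was -0.313 over the 38 genes and 0.00257 over all genes. A wider residual raises the SE, so the share called for either protein does not compare like with like. The other 29 had adjusted p of 0.0805 to 0.773. None of the 9 calls held with no filter on dim probes, where their limma adjusted p were 0.1 to 0.133. With every probe tested, the calls for Irf9, Usp18, Xaf1, Oasl1 and Cmpk2 were lost (0.0518 to 0.0636), and quantile normalization ended those for Irf9, Xaf1 and Cmpk2 (0.0547 to 0.0634). The median fitted BMP2 effect was 0.107 over the 38 genes and 0.0173 over all genes (log2). For LOXL2 the same fit called 0 of 38, against 0.0% of all genes, with adjusted p of 0.79 to 0.997. At an unadjusted p under 0.05 it took 1 of 38, Psmb9 (LOXL2 effect -0.25 ± 0.06, SE, limma unadjusted p = 0.0265), against 6.18% of all genes.

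The 4 transcription factors did not move alike. Irf1, a factor induced by interferon gamma, had levels of 2.55 under both proteins, 2.62 under BMP2, 3.25 under LOXL2 and 3.17 in untreated cells. It fell under BMP2 by 0.62 ± 0.07 (log2, SE, limma adjusted p = 0.0367), and the 2 arrays with BMP2 lay below the 2 without it. Irf9, the DNA-binding partner of STAT2, had levels of 3.5, 3.42, 3.13 and 2.9 in the same order. It rose by 0.44 ± 0.07 (limma adjusted p = 0.0496), and this call was lost under 5 of the settings run, with adjusted p of 0.0504 with the deposited value table to 0.133 with no filter on dim probes. Stat2 had levels of 3.62, 3.55, 3.31 and 2.96, with untreated cells again lowest, and missed the threshold (BMP2 effect 0.45 ± 0.1, limma adjusted p = 0.0805). Irf7, described above, had a BMP2 effect of 0.41 ± 0.18 (limma adjusted p = 0.202).

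Among the sensors and effectors of foreign nucleic acid, 0 of 6 passed the test for BMP2, with limma adjusted p of 0.117 to 0.707. Over all genes, 10.3% were called up and 9.98% called down. Ifih1 and Ddx58 encode the RNA sensors MDA5 and RIG-I, Dhx58 their relative LGP2, Eif2ak2 the kinase PKR, Zbp1 a Z-form nucleic acid sensor and Parp14 an ADP-ribosyltransferase. Their fitted BMP2 effects ran from -0.199 to 0.282. Their levels with LOXL2 alone were 0.0622 to 0.273 above untreated cells, and LOXL2 alone was the highest array for all of them but Dhx58. The widest of these differences was that of Zbp1 on its brighter probe. That probe had levels of 0.22, 0.26 and 0.26 under both proteins, BMP2 and no treatment, and 0.54 under LOXL2. Its dimmer probe did not put LOXL2 highest. In Eif2ak2 the step was smaller, with 1.83 under LOXL2 and 1.77 in untreated cells, which is within the spot spread.

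The IFIT proteins bind viral RNA and the MX proteins are antiviral GTPases. Of these 5 genes, 0 passed the test for BMP2, against 10.3% of all genes called up and 9.98% called down. Ifit1 had levels of 1.68 under both proteins, 1.76 under BMP2, 1.3 under LOXL2 and 0.84 in untreated cells (BMP2 effect 0.65 ± 0.17, limma adjusted p = 0.0989). Ifit3 was highest under LOXL2, at 1.26, against 0.79 in untreated cells, with 0.85 under both proteins and 0.94 under BMP2. Ifit2 stayed within 0.15 over all 4 arrays, at -1.84, -1.69, -1.79 and -1.8. The 3 neighbours of this family thus did not share a pattern. The steps between the Ifit2 levels were near the spot spread of 0.0915 or below it, so its arrays cannot be ordered. Mx1 and Mx2 also differed, since with both proteins Mx2 was higher than in untreated cells and Mx1 was lower. The Mx1 probe read an intensity of only 17.6 with both proteins, close to the lowest spots well above background.

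The OAS enzymes make the messenger that activates RNase L, and the OAS-like proteins modulate antiviral signalling. Oasl1 had levels of -0.96, -1.08, -0.5 and -0.67 under both proteins, BMP2, LOXL2 and no treatment. It fell under BMP2 by 0.43 ± 0.05 (limma adjusted p = 0.0407), and the 2 arrays with BMP2 lay below the other 2. Oasl2 lay at 2.36, 2.33 and 2.33 in the treated cultures and at 1.89 in untreated cells, so its treated arrays lay within 0.04 of each other. Oas1a had the same shape, at 2.41, 2.28 and 2.39 against 1.82. Oas2 was highest under LOXL2, at -0.09, with -0.67, -0.72 and -0.56 under both proteins, BMP2 and no treatment.

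ISG15 is a ubiquitin-like protein and USP18 removes it from its targets. Isg15 stood at 6.32, 6.27 and 6.12 in the treated cultures and 5.64 in untreated cells, and its BMP2 effect of 0.41 ± 0.14 did not pass (limma adjusted p = 0.145). Usp18 had levels of 2.19 under both proteins, 2.05 under BMP2, 1.47 under LOXL2 and 1.01 in untreated cells. It rose under BMP2 by 0.88 ± 0.11 (limma adjusted p = 0.0409), and the 2 arrays with BMP2 lay above the other 2.

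GBP and IRG proteins are GTPases that attack the compartments of intracellular pathogens. Gbp2 had levels of 0.06 under both proteins, 0.27 under BMP2, 1.13 under LOXL2 and 1.06 in untreated cells. It fell under BMP2 by 0.93 ± 0.1 (limma adjusted p = 0.036). The other 3, Gbp3, Igtp and Irgm1, did not pass, and untreated cells were the lowest array for none of the 4. LOXL2 alone was the highest array for all 4, but for Gbp2 it exceeded untreated cells by only 0.08, within the spot spread of 0.0915.

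Of the 4 antigen processing genes, 2 rose under BMP2, against 10.3% of all genes. B2m, the light chain of class I molecules, had levels of 7.76 under both proteins, 7.72 under BMP2, 7.21 under LOXL2 and 7.17 in untreated cells. Tap1, a subunit of the peptide transporter, had levels of -0.34, -0.24, -0.9 and -0.81 in the same order. B2m rose under BMP2 by 0.55 ± 0.05 (limma adjusted p = 0.0309) and Tap1 by 0.57 ± 0.05 (limma adjusted p = 0.0303). For both genes the arrays with BMP2 lay above those without, and no LOXL2 difference of either gene exceeded 0.1 in size. Psmb8 and Psmb9, subunits of the immunoproteasome, had BMP2 effects of 0.12 ± 0.05 and 0.11 ± 0.06 that did not pass (limma adjusted p = 0.207 and 0.274). With LOXL2 alone minus untreated these 4 genes had differences of -0.213 to 0.0354.

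Of the other 9 targets, Xaf1, which antagonises an inhibitor of apoptosis, rose under BMP2 by 0.63 ± 0.09 (limma adjusted p = 0.0454). Its levels were 2.97 under both proteins, 2.92 under BMP2, 2.46 under LOXL2 and 2.17 in untreated cells. Cmpk2, a mitochondrial nucleotide kinase, had levels of -4.68, -4.47, -4.08 and -4.04 in the same order and fell by 0.52 ± 0.07 (limma adjusted p = 0.0453). Its BMP2 effect was -0.2 with normexp background correction, and the call was lost with the trend and robust settings of limma (0.0744). It was dim, with intensities of 29.0, 32.7, 42.9 and 43.2 in that order, where the lowest spot well above background read 12.9 to 14.6. Bst2 encodes tetherin, which holds budding virus at the membrane, and Rtp4 a chaperone of receptors. Both were lowest in untreated cells. Bst2 stood at 4.19, 4.12 and 4.01 in treated cultures and 3.53 in untreated cells, and Rtp4 at 4.22, 4.15 and 4.04 against 3.65. Ifitm3, which blocks viral entry, stayed between 6.5 and 6.63. Ifi35 lay at 1.79, 1.76 and 1.78 in the treated cultures and 1.56 in untreated cells.

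Pairs of single arrays separate the 2 proteins, with no test and with arrays shared between pairs. For BMP2 over untreated, the median difference over the 38 genes was 0.297, against 0.0172 over all genes, and 28 of 38 lay above 0. For BMP2 with LOXL2 over LOXL2 alone, the median was -0.0196, against 0.0199 over all genes, and 19 of 38 lay above 0. For LOXL2 over untreated, the median was 0.252, against -0.0057 over all genes, and 35 of 38 lay above 0. For BMP2 with LOXL2 over BMP2 alone, the median was -0.0182, against -0.00191 over all genes, and 16 of 38 lay above 0. The set was thus higher with either protein alone than in untreated cells, and adding the second protein to the first was not accompanied by a further rise in the median. The pairs of BMP2 over untreated and of LOXL2 over untreated share the untreated array, so a low value there raises both.

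LOXL2 alone was at least 0.25 above untreated for 19 of 38 genes, against 8.66% of all genes. On top of BMP2, LOXL2 gave 0 of 38 such genes, against 7.21%. These 2 counts were not planned in advance. The cut of 0.25 lies beside the median of 0.252 for LOXL2 over untreated, so a near-even split of the 38 genes follows from it. Among the role groups, the median difference of LOXL2 over untreated was 0.473 for the IFIT and MX genes, 0.451 for the OAS genes and 0.474 for Isg15 and Usp18. It was 0.393 for the 9 other targets, 0.293 for the transcription factors, 0.198 for the sensors, 0.19 for the GTPases and -0.0304 for antigen processing.

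Few genes reached a 2-fold difference in any pair. For BMP2 over untreated, Usp18 (1.04) and Ifi44 (1.41) were at least 2-fold higher, 2 of 38 against 2.97% of all genes, and 0 were 2-fold lower, against 3.77%. For BMP2 with LOXL2 over LOXL2, 0 were higher, against 2.86%, and Mx1 (-2.49), Cxcl10 (-1.87) and Gbp2 (-1.08) were lower, 3 of 38 against 3.84%. For LOXL2 over untreated, Mx1 (1.1) was higher, 1 of 38 against 0.458%, and 0 were lower, against 0.42%. For BMP2 with LOXL2 over BMP2, 0 were higher, against 0.549%, and Mx1 (-1.82) and Cxcl10 (-2.25) were lower, 2 of 38 against 0.574%. Counts in the BMP2 pairs were thus within 2 genes of the share over all genes.

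**Figure D3:**
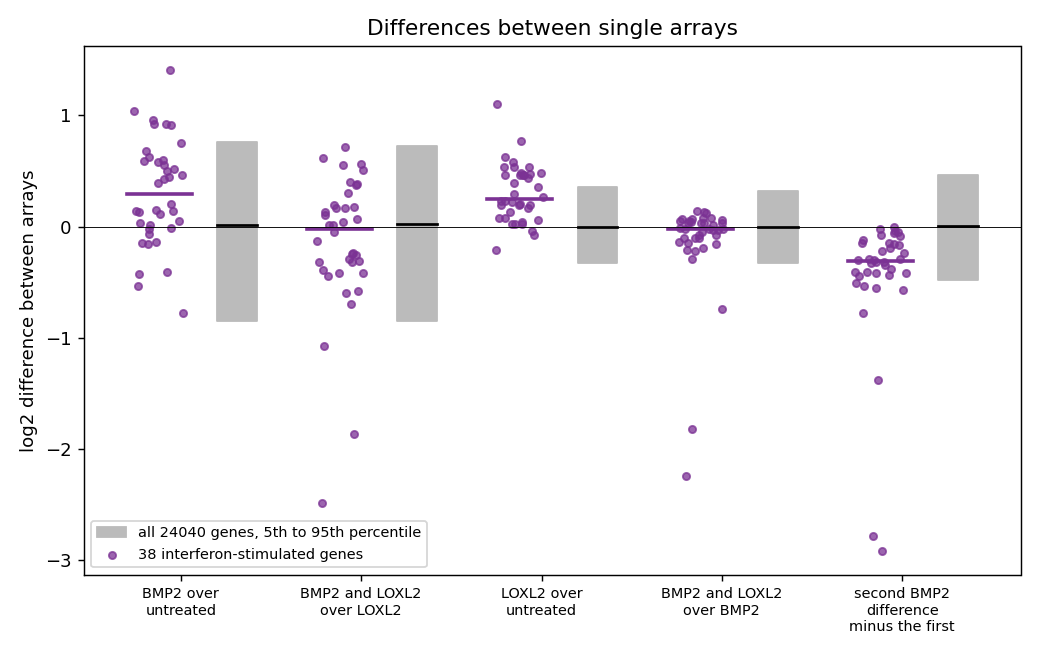
Log2 differences between single arrays for the 38 interferon-stimulated genes (purple points, bar at their median) beside the 5th to 95th percentile of all 24040 genes (grey, black bar at the median). The last column is the BMP2 difference under LOXL2 minus that without LOXL2, where all 38 points lie below 0 with a median of -0.313.

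The 2 BMP2 differences, under LOXL2 and without it, were then set against each other gene by gene. The difference was lower under LOXL2 for 38 of 38 genes, against 49.3% of all genes. It was lower by at least 0.25 for 23 of 38, against 12.1%. The median was -0.313 over the 38 genes and 0.00257 over all genes, and the range was -2.92 to -0.0026. The same number results if the LOXL2 difference under BMP2 is set against the LOXL2 difference without it. A low untreated level lowers this number, so it is not independent of the low untreated levels described above. B2m, Tap1 and Psmb8 had the values nearest 0, at -0.0026 for B2m, -0.02 for Tap1 and -0.04 for Psmb8. Oasl1 (-0.05), Ifitm3 (-0.06), Psmb9 (-0.08), Eif2ak2 (-0.09) and Ddx58 (-0.12) followed. All of these lie within the spot spread of 0.129, so their sign is not resolved. Isg15 had -0.44, from 0.19 under LOXL2 and 0.63 without. All 38 values come from the same 4 cultures, so they are not 38 independent observations, and the pattern was noticed after the values were seen. Between 36 and 38 genes were below 0 under the other processing settings that were run.

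Mx1 and Cxcl10, with Rsad2, had the widest gaps between the 2 BMP2 differences. Cxcl10, a chemokine that attracts T cells, had levels of -2.31 under both proteins, -0.06 under BMP2, -0.44 under LOXL2 and -0.98 in untreated cells. Its probe lies at chr5:92775781-92775840 (mm9, minus strand), and its intensities were 150.0, 696.0, 533.0 and 360.0 in that order, well clear of background. Mx1 had levels of -5.4, -3.58, -2.92 and -4.01 in the same order, from a probe at chr16:97668644-97668703 (mm9, minus strand). Its intensities were 17.6, 60.7, 95.8 and 44.0, so its array with both proteins read just above the lowest spot well above background, 12.9 to 14.6. Rsad2, which encodes the antiviral enzyme viperin, had levels of -4.09, -3.34, -3.67 and -4.3 in the same order. In all 3 genes each protein alone gave a higher level than no treatment, and in Cxcl10 and Mx1 both together gave a lower one.

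With the background corrected by normexp, Mx1 no longer departed, and its difference of BMP2 with LOXL2 over LOXL2 was -1.05. Cxcl10 departed under every setting run. Among all genes whose array with both proteins departed low, Mx1 and Cxcl10 ranked 12th and 15th of 146.

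Some macrophage markers were also low on the array with both proteins. Of 14 measured macrophage and leukocyte genes, 11 had their lowest level there, against 27.0% of all genes, and Cd14, Lyz2 and Mrc1 had theirs under BMP2 alone. Adgre1 (named Emr1 on the array) and C1qa departed low with both proteins, and 11 had no departing array. Ptprc also met the rule, but its intensity with both proteins was not well above background, so that gap is not measured. Adgre1, the F4/80 antigen, had levels of -3.76 under both proteins, -2.79 under BMP2, -2.92 under LOXL2 and -2.71 in untreated cells. C1qa, a complement subunit made by macrophages, had levels of -3.58, -2.85, -2.42 and -2.33 in the same order. Under BMP2, 0 of the 14 genes rose and 6 fell, among them C1qc, Mrc1 and Tyrobp, against 10.3% of all genes called up and 9.98% called down, and none was lowest in untreated cells, against 29.5%. Fcgr1, another marker on the list, was below background on all 4 arrays. The summed intensity of the list was 24399 under both proteins, 25172 under BMP2, 30833 under LOXL2 and 29201 in untreated cells, of which Itgam and Csf1r made up 90.0%, 88.9%, 87.6% and 86.3%. Without these genes the sum was 2446, 2784, 3808 and 3990 in the same order. Of 4 endothelial markers, Pecam1 and Cdh5 fell under BMP2. None of the 3 lymphoid and 3 plasmacytoid dendritic markers measured passed the test. The part of these cells in the Cxcl10, Mx1 and Rsad2 values was not tested. In bulk RNA, fewer cells of a type and less RNA per cell cannot be told apart.

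**Figure D4:**
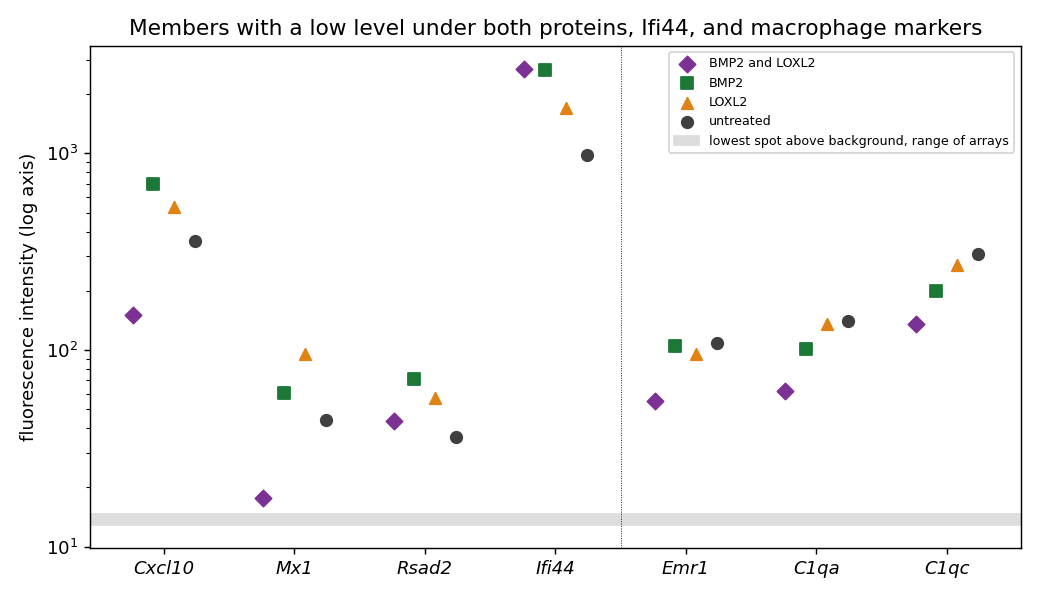
Fluorescence intensity on a log axis for 4 interferon-stimulated genes (left of the dotted line) and 3 macrophage markers (right), with 1 point for each array in the order both proteins, BMP2, LOXL2 and untreated. The 3 markers were picked from 14 measured. Of the 14, Cd14, Lyz2 and Mrc1 were lowest under BMP2 alone, and C1qc had no departing array. Cxcl10, Mx1, Emr1, C1qa and C1qc are lowest with both proteins, Ifi44 is lowest in untreated cells, and Mx1 with both proteins lies at 17.6, close above the grey band of the lowest spots well above background (12.9 to 14.6).

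Probes of a gene were compared where the design allowed. Of the 38 genes, 27 had 1 probe and 11 had 2. For Cmpk2, Cxcl10, Irf1 and Psmb9 the second probe was below background on all 4 arrays, so their values rest on 1 probe each. The second probe of Ifih1 was above background on 2 arrays, those with LOXL2 alone and BMP2 alone. The remaining 6 genes, Ddx58, Irgm1, Isg15, Oas1a, Xaf1 and Zbp1, had both probes above background on all 4 arrays. Over their 4 pairs of arrays, both probes gave the same sign in 22 of 24 cases, the exceptions being 1 pair each for Ddx58 and Zbp1. They gave the same lowest array in 4 of the 6 genes, and neither probe of any of the 6 had a departing array.

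The distance between the 2 probes' differences was at most 0.04 for Ddx58, 0.06 for Irgm1, 0.09 for Isg15 and 0.14 for Oas1a. It reached 0.27 for Zbp1 and 0.56 for Xaf1. The 2 Isg15 probes lie at chr4:155573649-155573708 and at chr4:155573533-155573552 (mm9, minus strand). The brighter gave levels of 6.32, 6.27, 6.12 and 5.64 under both proteins, BMP2, LOXL2 and no treatment, and the dimmer gave 2.15, 2.06, 1.96 and 1.52, so the pattern over arrays was shared although the levels were not. The dimmer Xaf1 probe gave -2.59, -2.72, -3.66 and -3.87 in that order, a wider step between the arrays with and without BMP2 than the brighter probe gave. The dimmer Zbp1 probe put LOXL2 between the other arrays, at -2.24, -2.16, -2.19 and -2.42, where the brighter probe put it highest. LOXL2 over untreated was 0.27 on the brighter probe and 0.24 on the dimmer, so both showed that rise. Only the brighter probe set LOXL2 above the other treated arrays. On the dimmer probe the treated arrays lay within the spot spread of 0.0915 and cannot be ordered.

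**Figure D5:**
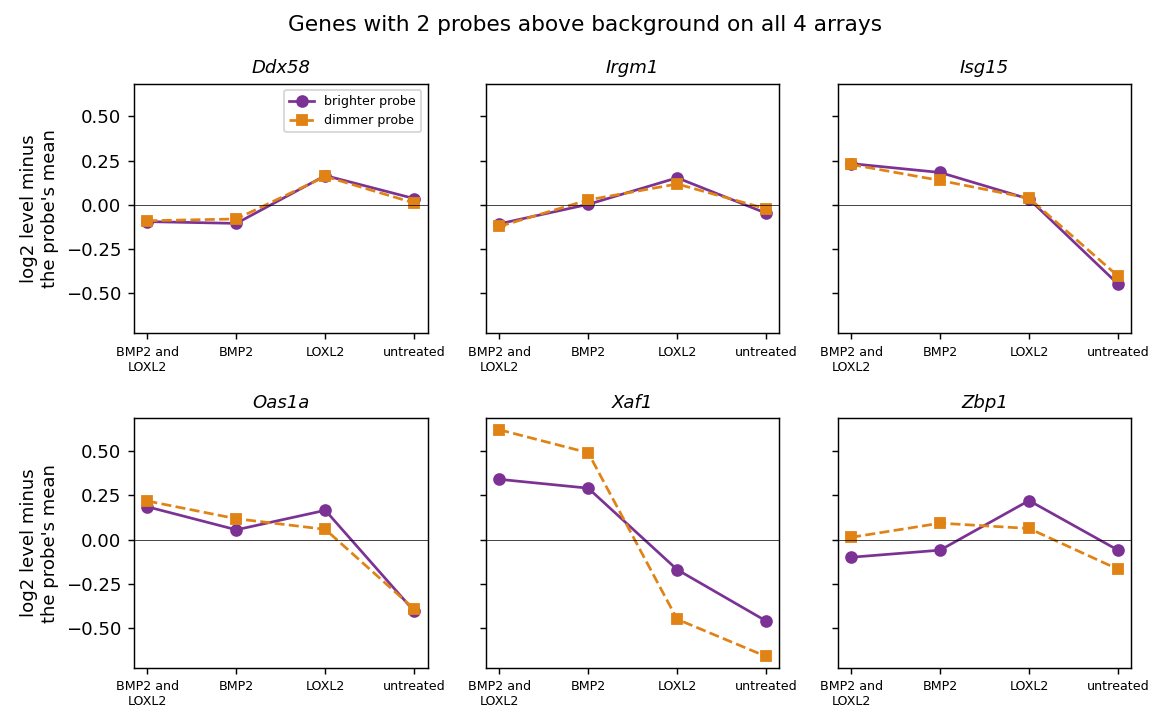
The 6 interferon-stimulated genes with both probes above background on all 4 arrays, as the log2 level of each probe minus its own mean, with the arrays ordered from both proteins to untreated. The 2 lines run close together for Ddx58, Irgm1 and Isg15 (within 0.04 to 0.09 in any difference) and apart for Xaf1 (up to 0.56).

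The wider pathway was read from a list of 90 other gene names, of which 78 genes were measured. Of these, 17 rose and 9 fell under BMP2, against 10.3% of all genes called up and 9.98% called down, so that the count that fell is near the share over all genes. Untreated cells were lowest for 38 of the 78, against 29.5% of all genes, but the differences were small. The median of BMP2 over untreated was 0.085 for these 78 genes, against 0.297 for the 38 interferon-stimulated genes. For LOXL2 over untreated the medians were 0.06 and 0.252. At a gap of 0.5 untreated cells departed low for none of the 78. Among the 7 interferon ligands, the probes of Ifnb1, Ifna4, Ifng, Ifnk and Ifne were below background on all 4 arrays. The probes named after Ifna2 and Ifnl3 were above it, with levels of -2.87 to -2.61 and -1.03 to -0.74, and neither passed the test for BMP2. Of 5 receptor chains, Ifnar1, a chain of the type I receptor, rose under BMP2 by 0.43 ± 0.05 (limma adjusted p = 0.0402), and the other 4 did not pass.

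Among the signal transducers, Irf5 rose, and Jak1, Jak2, Tyk2, Irf2, Irf3 and Irf8 did not pass. Tlr4 and Myd88 were the 2 of 10 sensors and adaptors that rose, against 10.3% of all genes. Ptpn2, a phosphatase that damps STAT signalling, rose. The phosphatase Ptpn6 was called down, but its probe was well above background on only 2 arrays, with intensities of 15.8, 13.2, 21.3 and 19.0 under both proteins, BMP2, LOXL2 and no treatment, so the size of the fall is not measured.

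Of 49 further targets, 11 rose and 8 fell, against the same 10.3% and 9.98% of all genes. Nlrc5, the transactivator of class I genes, had levels of 1.61 under both proteins, 1.31 under BMP2, -0.49 under LOXL2 and -0.75 in untreated cells, and rose by 2.08 ± 0.05 (limma adjusted p = 0.0206). The class I heavy chains rose with it, H2-D1 by 0.78 ± 0.06, H2-K1 by 0.53 ± 0.05 and H2-T23 by 0.52 ± 0.05 (limma adjusted p = 0.0273, 0.0326 and 0.0336). The other targets that rose were Ifi204 (1.32), Gbp4 (0.83), Apol9a (0.82), Lgals3bp (0.69), Gbp6 (0.63), Ifi30 (0.5) and Trim25 (0.39), each as the BMP2 effect. Ifitm1, a relative of Ifitm3, had levels of 1.18 and 1.29 with BMP2 and 3.46 and 3.61 without, and fell by 2.31 ± 0.05 (limma adjusted p = 0.0206). Ifi47 (-1.23), Ifi27l2a (-1.16), Ccl5 (-0.99), Lgals9 (-0.79), Ifitm2 (-0.56), Tapbp (-0.54) and Psmb10 (-0.36) also fell. Tapbp, which loads peptide on class I molecules, and Psmb10, an immunoproteasome subunit, thus went the other way from B2m and Tap1. Ciita, the class II transactivator, met the rule for a low array with both proteins, but its intensity there, 10.5, was not well above background, so no gap is given.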

How the data were processed

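RNA of 4 cultures was labelled with Cy3 and hybridised to 1 single-colour array each, per the labels' protocols. The deposited scanner files hold the fluorescence intensity of each spot, background-corrected per the file headers. The submitters' processing notes name Agilent Feature Extraction 10.7.3.1. The deposited value table holds linear intensity, within 0.1% of the scanner files' value for 99.52% to 99.53% of probes on each array, and served as an alternative. The log2 of the processed intensity was taken here, minus each array's 75th percentile over non-control spots. Outlier spots were left out, spots averaged per probe, and probes well above background on at least 2 arrays kept, the brightest per gene. Of 55681 probes, 26762 were renamed through their RefSeq accession and 28919 kept the file's name. The additive model was fitted with limma 3.58.1 in R 4.3.3 over 24040 genes. A run on simulated data held larger BMP2 changes than those called among the 38 genes and no departure from additivity. That run therefore does not bear on these calls. With 1 array per treatment, the model's 1 residual degree of freedom is the departure from additivity, so p-values carry no spread between cultures. Probe coordinates are mm9, per the file headers, and exon or UTR was not assigned. Genes were called at an adjusted p under 0.05. All 38 genes are accounted for, and values on every array are given for those that passed the fit or had a departing array, for Irf1, Irf7, Irf9, Stat2 and B2m, and for examples of each role. Other pathway genes are named where they passed or departed, and 1 of them is counted but not reported here. The genes, lists and rules were chosen with earlier results of these data known.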

Additional observations from a re-analysis of the deposited data

Results flagged for a closer look

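The 3 interferon-stimulated genes with the widest gaps between the 2 BMP2 differences were higher with BMP2 than in untreated cells. They were lower with BMP2 and LOXL2 than with LOXL2 alone. Other genes changed sign in the same way by less, among them Ifit3 (0.15 without LOXL2 and -0.42 under it) and Parp14 (0.03 and -0.32). The BMP2 difference of Mx1 was -2.49 under LOXL2 and 0.43 without, which differ by -2.92. That of Cxcl10 was -1.87 under LOXL2 and 0.92 without, which differ by -2.79. That of Rsad2 was -0.42 under LOXL2 and 0.96 without, which differ by -1.38. Each of these rests on 1 array per treatment, and the difference was not tested. Mx1 and Rsad2 were dim, with intensities of 17.6 and 43.7 under both proteins, and with normexp background correction their differences were -1.23 and -0.56, against -2.27 for Cxcl10.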

How the results depend on the processing

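The count of genes that rose under BMP2 was 5, and 12 with normexp background correction, 9 with the trend and robust settings of limma, 3 with quantile normalization, 2 with every probe tested and 0 with no filter on dim probes. The count that fell was 4, and 7, 7, 2 and 0 under normexp, the trend and robust settings, every probe and no filter. With no filter limma called 0 of 35077 genes (smallest adjusted p 0.09), with 7 of the 38 genes up and 4 down at an unadjusted p under 0.05. Over all genes, the BMP2 calls numbered 4883, against 9086 with normexp and 10388 with the trend and robust settings, which also called 14 for LOXL2. The cause was not tested. Under normexp, 0 genes were at least 2-fold changed for LOXL2 over untreated and 1 for BMP2 with LOXL2 over BMP2, 1 departed low with both proteins, Irf7 no longer departed although the count with untreated cells low stayed 3, and the median of BMP2 over untreated was 0.19. With the mean of all probes of a gene that median was 0.412. Untreated cells departed low for 10 genes at a gap of 0.25 and for 0 at a gap of 1, where 0.112% of all genes did. None of the 9 called genes among the 38 changed direction under any setting run, and called genes outside the 38 were not compared one by one. Median centring and the stricter filter on dim probes left each summary count within 1.5 times its value. No paired analysis was possible because each treatment had 1 array, and leaving out an array leaves no residual degree of freedom, so the single pairs stand in for it. Dim probes such as those of Mx1, Rsad2 and Cmpk2 limit how precisely their differences are known.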

Other observations

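Of the 30 genes in the promoter table, the response element core was found in 9 of the 15 with untreated cells lowest and in 9 of the 15 with another array lowest, and the gamma-activated sequence in 4 and 5 of these. Probes for 2 genes on the lists read at high intensity although their genes are best known from other cells. The probe named Cxcl11, an interferon-induced chemokine, lay at a level of 8.34 to 8.49 over the 4 arrays, and the one named Siglech, a marker of plasmacytoid dendritic cells, at 6.99 to 7.19. The probes for Cxcl9 and Ly6d were well above background on 1 array each.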
